A study of Bos taurus with 12 samples.

Results

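The proteasome subunits and the ubiquitin-conjugating enzymes were followed in the bovine corpus luteum, the progesterone-secreting gland that forms in the ovary after ovulation. The members were all genes on the array whose symbol starts with PSMA, PSMB, PSMC, PSMD, PSME, PSMF, PSMG or UBE2. This rule uses names and no measured value. It found 62 genes, held by 65 probes, among 14888 genes and 15208 probes on the array. All 62 were among the 12334 genes tested, and 60 of them were well above background on all 12 arrays. The exceptions were PSMB1, above background on 4 NP15, 4 P15 and 1 P18 arrays, and UBE2E3, above it on 3, 4 and 0. Of the 62, 38 are named for the proteasome, 23 are UBE2 genes, and PSME3IP1 shares only the prefix. No PSMG gene was found, and PSME3, PSME4, PSMB11 and UBE2L6 were not analysed here.

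The arrays were made from 12 Japanese Black cows, each a separate animal, with 4 on day 15 of the estrous cycle (NP15) and 4 each on day 15 (P15) and day 18 (P18) of gestation. Day 1 was the day of artificial insemination. The glands were taken 10 to 30 min after exsanguination, so every group shares that interval. The labels name no genotype, treatment or agent for any group, and every animal is of the one breed.

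The 26S proteasome is the protease that degrades most short-lived and misfolded proteins of the cell. Its barrel, the 20S core, has outer rings of alpha subunits that gate the entry and inner rings of beta subunits, some of which cut. The 19S particle caps the barrel, binds ubiquitin chains, and unfolds and threads the substrate with a ring of ATPases. Ubiquitin is activated by an E1 enzyme, passed to an E2 conjugating enzyme of the UBE2 family and joined to the substrate with the help of an E3 ligase. Interferon and other inflammatory signals induce alternative beta subunits, which with the 11S activator favour peptides for class I antigen presentation. Around the days sampled the bovine embryo secretes interferon tau, the signal by which pregnancy is recognised and the corpus luteum is kept.

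Values are log2 of the background-corrected signal relative to the 75th percentile of the same array, so 0 lies at that percentile and a value can be compared between arrays but not between genes. Errors after ± are standard errors of the fitted change. The 75th percentile was 2649 to 4183 signal units, and 67.5% to 85.6% of probes were well above background. Negative-control spots had a net signal of 34.1 to 40.0 on the NP15 and P15 arrays and of 80.4 to 99.3 on the P18 arrays. NP15 and P15 shared slide 1 and scan 1, in slide rows 1 and 2, and P18 lay alone on slide 2 and scan 2. Batch and group therefore cannot be told apart in the comparisons with P18, nor slide row and group in those with NP15, and P18 against NP15 also mixes day with pregnancy. Of the 9 markers of luteal steroidogenic cells looked up, STAR, CYP11A1, HSD3B1 and OXT among them, 9 were above background on all 12 arrays.

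The array of NP15 replicate 4 held an oval patch of low signal. For each spot the local shift was taken as the median difference of the spots within 3 rows and 3 columns from the other arrays of the group. On this array 1744 of 12605 kept probes, 13.8%, had a local shift under -0.5, and 1715 of them lay in columns 20 to 55. The lowest shift was -4.43. No other array had more than 97 such probes, and 7 of the 12 had 0.

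Among the 65 member probes, 15 lay in low neighbourhoods of that array, and 14 of those stood for their gene. Their own signal differed from the other NP15 arrays by -4.38 to -0.70, and their neighbours, probes of unrelated genes, by -4.01 to -0.61. The other 50 member probes differed by -0.59 to 0.94. PSMD14, which encodes the deubiquitinase of the 19S lid, read 2.17, 2.16, 2.24 and -2.21 on the NP15 arrays, where its neighbours were at -4.01 on replicate 4. The low values of PSMA1, PSMB3, PSMC5, PSMD11, PSMD12, PSMD14, UBE2A, UBE2E3, UBE2G2, UBE2K, UBE2T, UBE2V1, UBE2V2 and PSME3IP1 on that array thus stand among low spots of other genes. UBE2T, in column 82, lay outside columns 20 to 55, and its own spot was lower than its neighbours. For the genes whose result turns on that spot, values without it are given below. For PSME3IP1, UBE2G2 and UBE2K leaving it out turned or enlarged changes that were called in neither case, from 0.34 to -0.066, from -0.16 to -0.43 and from 0.29 to -0.15 in P18 against NP15.

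**Figure D1:**
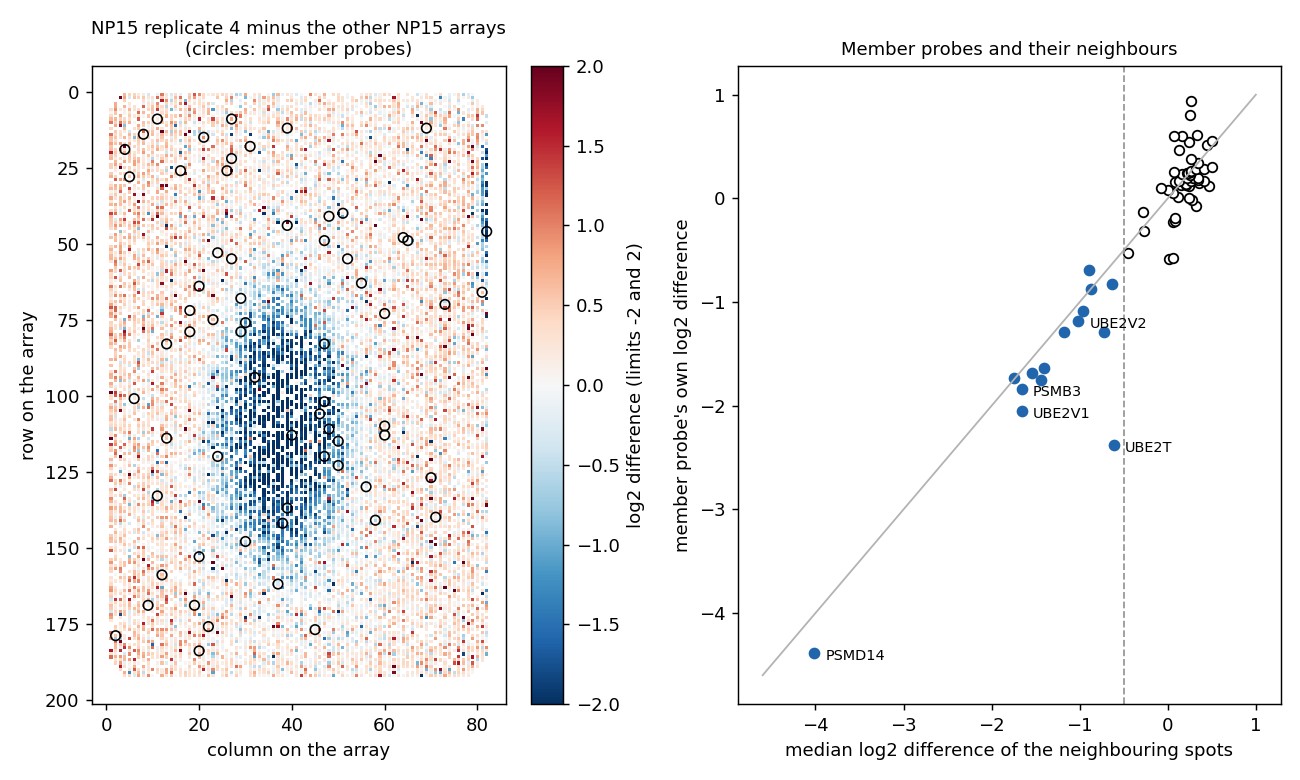
Left, log2 difference of each spot on NP15 replicate 4 from the other NP15 arrays, by row and column of the array, with member probes circled. Right, each member probe's own difference against the median difference of its neighbours, with the line of equality and a dashed line at -0.5. The 15 filled points have low neighbours, with PSMD14 at -4.38 the lowest. UBE2T, at -2.38 with neighbours at -0.61, and UBE2E3, at -1.29 with neighbours at -0.73, lie below the line.

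Between NP15 and P15 no member was called, a count near the share of all genes. Limma's moderated test with Benjamini-Hochberg adjustment called 0 of 62 members, where 0.981% of all genes tested were called, 0.397% higher and 0.584% lower. Among the 9614 genes above background on all 12 arrays, as nearly all members were, 0.843% were called, 0.458% higher and 0.385% lower. At an unadjusted p under 0.05 there were 2 members, PSMB6 and UBE2O, both lower in P15. The groups did not overlap for 3 members, PSMB6, UBE2F and UBE2H, against 6.49% of all genes. The median log2 change of the members was -0.07, and that of all genes was -0.06.

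Day 18 of gestation differed from day 15 in 14 members, 10 higher and 4 lower in P18. That is 22.6% of the members, and 28.3% of all genes were called in this comparison, 12.8% higher and 15.5% lower. Of the genes above background on all arrays 25.8% were called, 12.1% higher and 13.7% lower. Of the 38 proteasome genes, 10 were higher and 3 lower, a median change of 0.22, and of the 23 UBE2 genes 0 were higher and 1 was lower, a median of 0.07. The median over all genes was -0.03. P15 and P18 did not overlap for 18 of the 38 proteasome genes and 3 of the 23 UBE2 genes, and 34.7% of all genes did not overlap. With the spots of local shift left out, a setting added after seeing the data, 17 members were called, 13 higher and 4 lower. The count was 8 without either P15 replicate 1 or 2 or P18 replicate 3, and 9 without P15 replicate 3.

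P18 against NP15 gave 12 called members, 8 higher and 4 lower, which is 19.4% of them, beside 28.9% of all genes, 10.4% higher and 18.6% lower. For genes above background throughout, the shares were 26.4%, 10.1% and 16.3%. The proteasome genes had 7 higher and 3 lower calls and a median of 0.19, and the UBE2 genes 1 of each and a median of -0.09. Patch spots of NP15 replicate 4 enter both medians. The median of all genes was -0.06. Groups did not overlap for 15 of the 62 members, and for 30.4% of all genes. Leaving out the spots of local shift gave 14 calls, 8 higher and 6 lower. The count was 6 without P18 replicate 3 and 7 without NP15 replicate 3. P18 arrays are shared by both comparisons, so the calls of one are not support for the other.

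In tissue RNA, fewer cells of a type and less RNA per cell cannot be told apart, and markers of several cell types differed along with the members. The signals of 8 endothelial markers, each relative to the 75th percentile, added up to 4.38 to 5.95 on NP15 arrays, 5.02 to 5.48 on P15 arrays and from 3.84 to 4.75 in P18, with 0 higher and 3 lower calls in each comparison with P18. For 9 fibroblast and mural markers the sums were 88.5 to 99.2, 88.2 to 101 and 65.3 to 82.7, with 0 higher and 4 lower calls each time. The 9 luteal markers had 2 higher and 1 lower calls against P15 and 1 and 3 against NP15. Their sum is not given, since STAR and HSD3B1 read the same value on NP15 replicates 1 and 4, 7.55 and 7.83. On NP15 replicates 2 and 3 they were nearly equal, at 7.28 and 7.60. The NP15 arrays had 3 to 7 saturated spots, and whether these probes were among them was not tested. The luteal calls against NP15 share this limit. Of 9 markers of dividing cells 0 were higher and 1 lower each time, with sums of 2.88 to 6.05, 3.86 to 5.09 and 3.38 to 5.18. The lower call was on a marker not above background on all 12 arrays. The 2.88 is that of NP15 replicate 4, where TYMS read -0.07 against 1.44 to 1.65 on the other NP15 arrays. Whether marker probes lie in the patch was not tested. Of 3 red blood cell markers 1 was higher and 0 lower, with sums of 0.393 to 0.484, 0.382 to 0.437 and 0.518 to 0.719. Of all genes 12.8% were higher and 15.5% lower against P15, and 10.4% and 18.6% against NP15. Nearly all members are used by every cell type, and the part that tissue makeup has in their values was not tested.

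**Figure D2:**
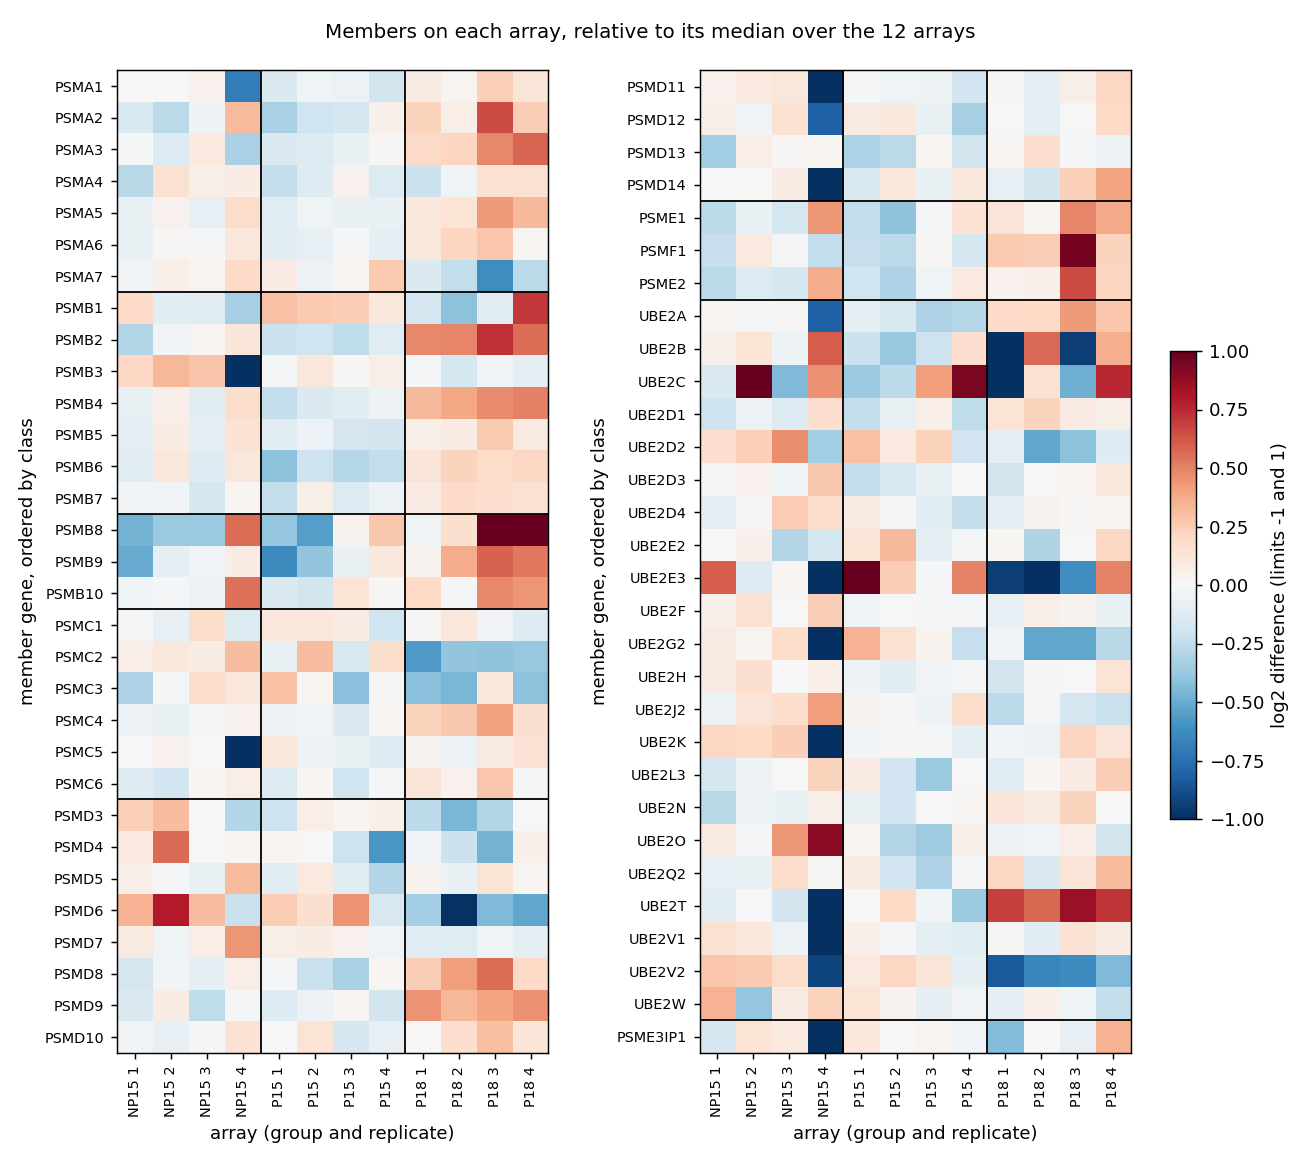
Log2 signal of the members, all but 1 of the UBE2 genes, on each of the 12 arrays minus the gene's median over them, with colour limits at -1 and 1 and lines between groups and classes. Members of the core, such as PSMB2, PSMB4 and PSMA3, are higher across the 4 P18 arrays, and PSMD14, PSMC5 and PSMB3 are at their lowest on NP15 replicate 4.

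**Figure D3:**
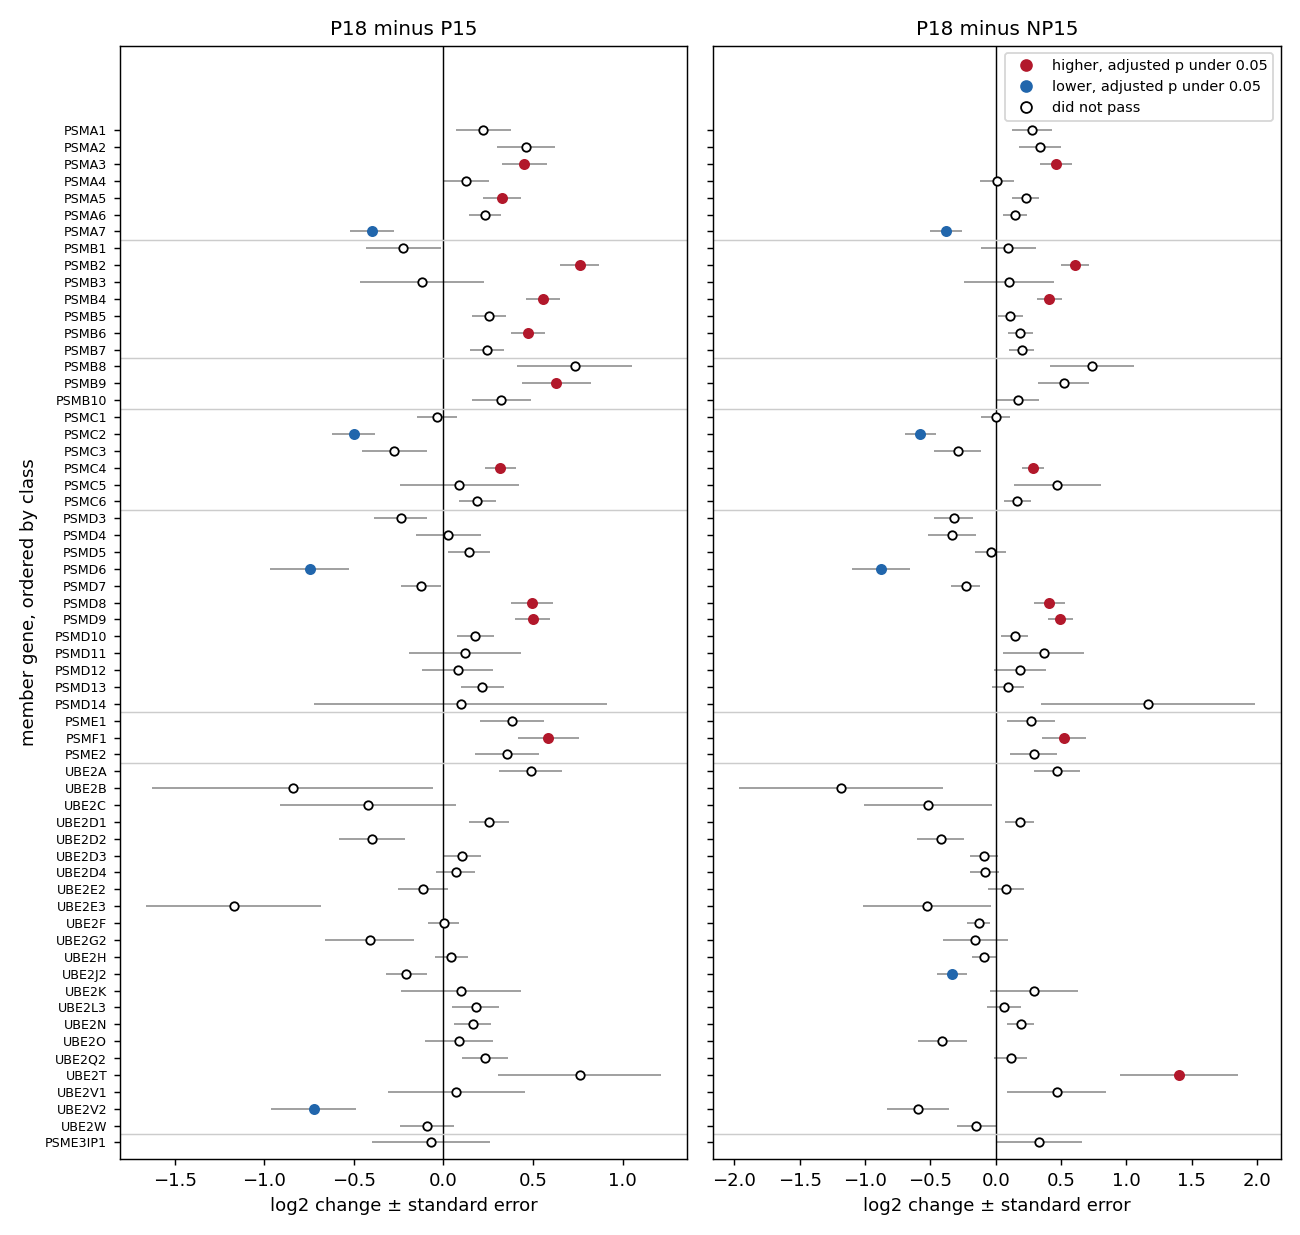
Log2 change ± standard error of the members, all but 1 of the UBE2 genes, in P18 minus P15 and P18 minus NP15, ordered by class, with filled points where the adjusted p was under 0.05. The core had 6 higher and 1 lower calls of 17 against P15, and the UBE2 genes 0 higher and 1 lower of 23.

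In the 20S core more genes rose than fell on day 18. Among its 17 genes, 6 rose from P15 to P18 (PSMA3, PSMA5, PSMB2, PSMB4, PSMB6 and PSMB9), 1 fell (PSMA7), and 14 had a change above 0. Of all genes 12.8% rose and 15.5% fell. The median was 0.32, against -0.03 for all genes, and in 11 of the 17 the groups did not overlap, as in 34.7% of all genes. The median of the deposited log2 values was lower on the P18 arrays, at -3.32 to -3.19, than on the others, at -3.08 to -2.99. Whether a difference between arrays that depends on signal level enters the core's changes was not tested. The core's signals added up to 96.3 to 108 on NP15 arrays, 88.6 to 102 on P15 arrays and from 115 to 138 in P18. All P18 sums lay above those of P15. In all sums of signals given here the brightest probes weigh most, in the core PSMB4 and PSMB9, both called higher against P15. The NP15 sum of 108 is that of replicate 4 and includes the low patch spots of PSMA1 and PSMB3. The order of that array and the P18 arrays is therefore not certain. Against NP15, 3 core genes were higher and 1 lower, with a median of 0.20. The number of core genes called higher against P15 was 3 after quantile or cyclic loess normalization, or without P15 replicate 2 or P18 replicate 3 or 4. It was also 3 with the outer rows of the array left out, which removes 5 of the 17 core genes, PSMB2, PSMB4 and PSMB6 among them. It was 10 with array weights or without NP15 replicate 4, and the median stayed between 0.16 and 0.36.

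The alpha ring, which forms the gate, had 7 genes. PSMA3, which encodes one of the alpha subunits, was measured by the following probe, the item behind the clearest alpha change, printed 5′ to 3′ as deposited with nothing marked.
PSMA3: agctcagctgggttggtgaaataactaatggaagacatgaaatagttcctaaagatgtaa

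PSMA3 read 2.27, 2.15, 2.38 and 1.96 in NP15, 2.14, 2.15, 2.21 and 2.30 in P15, and 2.48, 2.5, 2.76 and 2.86 in P18. All 4 P18 arrays lay above all the others. It was 1.37-fold higher in P18 than in P15 (0.45 ± 0.12 on the log2 scale, adjusted p = 0.0192 by limma) and 1.38-fold higher than in NP15 (0.46 ± 0.12, adjusted p = 0.0170). The first of these calls was lost without P15 replicate 2 or P18 replicate 3 or 4, at adjusted p of 0.0501 to 0.0542. Both were lost after quantile normalization, at 0.185 and 0.130, and the first also after cyclic loess normalization, at 0.0885.

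PSMA5 was 1.25-fold higher in P18 than in P15 (0.33 ± 0.10 on the log2 scale, adjusted p = 0.0361 by limma), with values of 2.70 to 2.78 in P15 and from 2.93 to 3.25 in P18. Leaving out any of the P15 arrays, or P18 replicate 3 or 4, took this call to an adjusted p of 0.0653 to 0.101, and quantile and cyclic loess normalization took it to 0.199 and 0.126. PSMA7 went the other way. It read -1.27, -1.19, -1.22 and -1.06 in NP15, -1.17, -1.31, -1.22 and -0.98 in P15, and -1.39, -1.49, -1.87 and -1.52 in P18, the lowest 4 values of the 12. P18 was 1.32-fold lower than P15 (-0.40 ± 0.12 on the log2 scale, adjusted p = 0.0306 by limma) and 1.30-fold lower than NP15 (-0.38 ± 0.12, adjusted p = 0.0371). Its calls did not hold after quantile normalization (adjusted p = 0.0675 and 0.0820) or cyclic loess normalization (0.0874 and 0.162). Without single arrays they were lost 5 and 8 times, among them P18 replicate 3 (0.0781 and 0.0949) and, against NP15, NP15 replicate 4 (0.0645). The probe lies in row 9, among the outer rows.

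PSMA1, PSMA2 and PSMA6 had P18 arrays wholly above P15 without passing the test, at changes of 0.22, 0.46 and 0.23 and adjusted p of 0.315, 0.0523 and 0.0756. PSMA4 overlapped between the groups, at 0.13. PSMA1 has its NP15 replicate 4 spot in the patch, and without it the adjusted p was 0.0695 and the change from NP15 went from 0.28 to 0.10. With the spots of local shift left out PSMA2 passed at an adjusted p of 0.0440, with its own change of 0.46 the same. A second PSMA6 probe, which shares a run of 40 bases with the first, changed by 0.15.

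The 7 constitutive beta subunits include the catalytic sites PSMB5, chymotrypsin-like, PSMB6, caspase-like, and PSMB7, trypsin-like. From P15 to P18, 3 of the 7 rose, PSMB2, PSMB4 and PSMB6, and 0 fell, with a median of 0.25. The shares of all genes were 12.8% and 15.5%. Of the catalytic subunits only PSMB6 passed. Probe sequences are shown for PSMB2, which had the largest called change from P15 to P18, and for PSMB6 and PSMB7, which contrast a catalytic subunit that passed with one that did not. PSMB2 and PSMB6 are given as windows of 30 bases with AATAAA, the hexamer of the polyadenylation signal, in capitals, and PSMB7 as the whole probe of 60 bases.
PSMB2: tggttaattcagAATAAAgctgactgtgga
PSMB6: ccttcaaaattcAATAAAcagttcatcagt
PSMB7: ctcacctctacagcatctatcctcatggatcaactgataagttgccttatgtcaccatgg

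PSMB2, a non-catalytic subunit of the beta ring, read 1.23, 1.5, 1.55 and 1.64 in NP15, 1.31, 1.33, 1.27 and 1.40 in P15, and 2.0, 2.01, 2.26 and 2.08 in P18. The P18 arrays stood clear of both other groups, whose ranges overlapped. P18 was 1.69-fold above P15 (0.76 ± 0.11 on the log2 scale, adjusted p = 0.000603 by limma) and 1.52-fold above NP15 (0.61 ± 0.11, adjusted p = 0.00192).

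PSMB4, another non-catalytic subunit, read 4.10, 4.22, 4.07 and 4.35 in NP15, 3.93, 4.03, 4.07 and 4.13 in P15, and 4.5, 4.56, 4.65 and 4.68 in P18. Again all P18 arrays were the highest. The change was 0.55 (SE 0.10, 1.47-fold, limma adjusted p = 0.00178) from P15 and 0.41 (SE 0.10, 1.33-fold, adjusted p = 0.00887) from NP15. Both PSMB2 calls and both PSMB4 calls held in every alternative that tested the gene. Their probes lie in rows 169 and 176, so neither was tested with the outer rows left out.

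PSMB6 read 2.79, 3.01, 2.77 and 3.01 in NP15, 2.49, 2.70, 2.62 and 2.65 in P15, and 3.03, 3.12, 3.08 and 3.10 in P18. It was the only member of the 62 whose 3 groups lay apart from each other, lowest in P15 and highest in P18. P18 was 1.39-fold above P15 (0.47 ± 0.10 on the log2 scale, adjusted p = 0.00415 by limma). The other pairs did not pass, at -0.28 for P15 against NP15 (SE 0.10, adjusted p = 0.330) and 0.19 for P18 against NP15 (SE 0.10, adjusted p = 0.165). Its probe is in row 184, also an outer row. In the last 24 rows the median change of all genes from NP15 to P15 was -0.25, close to that of PSMB6, and after row adjustment PSMB6 was at -0.051 in that comparison. After the same adjustment its change from P15 to P18 was 0.30 (adjusted p = 0.0410).

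PSMB5 and PSMB7 missed the threshold against P15. PSMB5 changed by 0.25 (SE 0.09, limma adjusted p = 0.0684) and PSMB7 by 0.24 (SE 0.09, adjusted p = 0.0763), with all P18 arrays above all P15 arrays in both. Without NP15 replicate 4 PSMB5 passed at 0.0379. PSMB1 was at -0.22, but only 1 of its P18 spots was above background. PSMB3 read 3.11, 3.24, 3.20 and 1.36 in NP15, 2.89 to 3.02 in P15 and from 2.74 to 2.90 in P18. The value of 1.36 lies in the patch. With it the change from NP15 to P18 was 0.10, and with that spot left out it was -0.35 (limma adjusted p = 0.0132), the opposite direction.

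**Figure D4:**
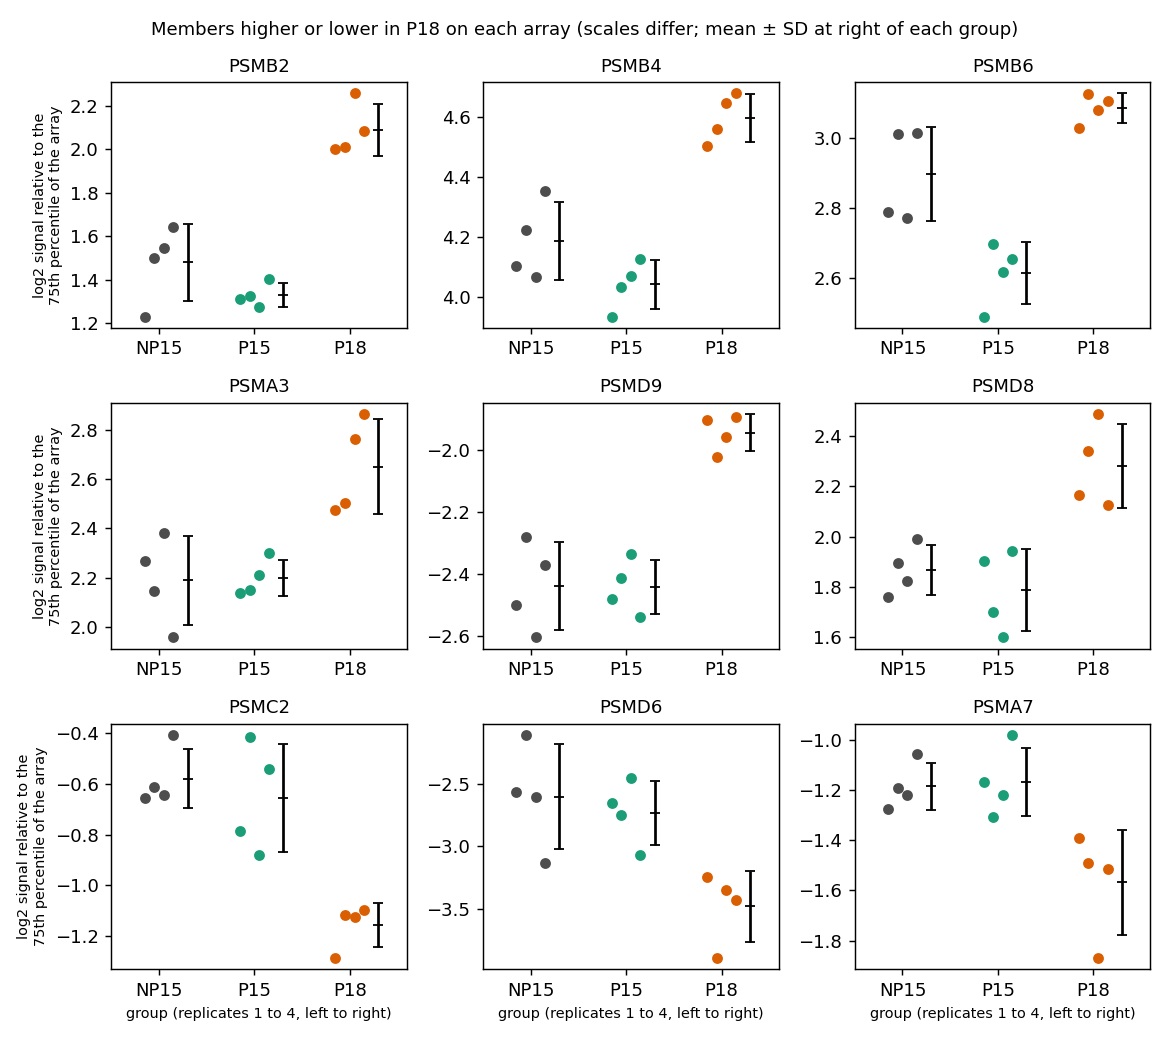
Log2 signal of 9 called members on each array, by group, with mean ± SD beside the points and a separate scale for each gene. All 9 show P18 arrays apart from both other groups, PSMB2, PSMB4, PSMD9 and PSMC2 among them.

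The inducible subunits PSMB8, PSMB9 and PSMB10 replace PSMB5, PSMB6 and PSMB7 in the immunoproteasome, and PSME1 and PSME2 form its 11S activator. All 5 had mean values that were higher in P18 than in P15, with changes of 0.32 to 0.73 and a median of 0.38, but only PSMB9 passed the test. None of the 5 had P18 arrays wholly above P15. Their probes are shown because the set is described array by array below, with the AATAAA hexamer in capitals in the windows for PSMB9, PSME1 and PSME2 and nothing marked in the whole probes of PSMB8 and PSMB10.
PSMB8: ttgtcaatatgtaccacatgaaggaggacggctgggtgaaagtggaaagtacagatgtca
PSMB9: cttctttattttgtAATAAActttctggaa
PSMB10: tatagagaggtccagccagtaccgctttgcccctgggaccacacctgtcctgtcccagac
PSME1: ttacctcccaggcacaAATAAAtatagtca
PSME2: ggttagaagggaAATAAAtgacctatactt

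PSMB9 read 3.59, 4.00, 4.06 and 4.17 in NP15, 3.45, 3.70, 4.03 and 4.20 in P15, and 4.13, 4.47, 4.68 and 4.62 in P18. The highest P15 array, replicate 4, lay above the lowest P18 array. P18 was 1.55-fold above P15 (0.63 ± 0.19 on the log2 scale, adjusted p = 0.0307 by limma) and 1.43-fold above NP15 (0.52 ± 0.19, adjusted p = 0.0643). The call was lost without P15 replicate 1 or 2 or P18 replicate 2, 3 or 4, at adjusted p of 0.0584 to 0.0837, and after quantile (0.0713), cyclic loess (0.0917) or row adjustment (0.0598).

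PSMB8 read -0.79, -0.70, -0.70 and 0.24 in NP15, -0.71, -0.88, -0.29 and -0.05 in P15, and -0.35, -0.17, 0.71 and 0.81 in P18. Within each group the arrays spread widely, with NP15 replicate 4 and P18 replicates 3 and 4 the highest. The changes of 0.73 from P15 (SE 0.32, limma adjusted p = 0.116) and 0.74 from NP15 (SE 0.32, adjusted p = 0.110) did not pass. Without NP15 replicate 4 the second was 0.98 (adjusted p = 0.0322).

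PSMB10 read 2.42, 2.45, 2.41 and 3.02 in NP15, 2.32 to 2.6 in P15 and 2.67, 2.46, 2.94 and 2.90 in P18. The NP15 array of replicate 4 was higher than every P18 array. Its change from P15 was 0.32 (SE 0.16, limma adjusted p = 0.169), and from NP15 0.17 (SE 0.16, adjusted p = 0.480). PSME1 and PSME2 had changes of 0.38 (SE 0.18, adjusted p = 0.139) and 0.35 (SE 0.18, adjusted p = 0.165) from P15, and of 0.27 and 0.29 from NP15 (adjusted p = 0.289 and 0.249). Array weights took all 5 past the threshold against P15, and leaving out replicate 4 of both NP15 and P15, which was added after seeing the data, took 3 of the 5.

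Their median deviation from each gene's own median over the 12 arrays was -0.27, -0.10, -0.17 and 0.44 in NP15, -0.24, -0.40, -0.02 and 0.11 in P15, and 0.04, 0.05, 0.59 and 0.44 in P18. NP15 replicate 4 and P18 replicates 3 and 4 stood highest. None of the 5 probes lies in the patch of NP15 replicate 4. For 14 interferon-response genes, ISG15, MX1 and OAS1X among them, the same measure was -0.36, -0.42, -0.08 and 0.04 in NP15, -0.75, -0.89, 0.22 and 1.01 in P15, and 0.13, 0.20, 2.01 and 0.17 in P18. That list had 2 higher and 0 lower calls against NP15, and 0 higher and 1 lower against P15, beside 28.9% and 28.3% of all genes called. In each P18 comparison 12 of the 14 had a change above 0, with medians of 1.01 against P15 and 0.91 against NP15. The lower call is UBA7, which is also counted among the ubiquitin genes below. P18 replicate 3 was thus the highest array in both lists, while NP15 replicate 4 and P18 replicate 4 were high for the 5 subunits and at 0.04 and 0.17 for the interferon genes. Whether any of the 14 interferon probes lies in the patch was not tested, so their 0.04 on NP15 replicate 4 is not certain.

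Of 20 leukocyte markers 15 were tested, and their median deviation was -0.27, -0.38, 0.22 and 0.58 in NP15, 0.11, -0.50, 0.32 and 0.69 in P15, and -0.29, -0.30, -0.03 and 0.90 in P18. Replicate 4 was the highest array in all 3 groups. Their summed signal was 1.14 to 2.19, 0.973 to 3.16 and 1.14 to 5.10. Against P15, 2 markers were higher and 1 lower, beside 12.8% and 15.5% of all genes. Of the 15, 6 had a change above 0 from P15 to P18 and 9 below. PTPRC, which encodes the common leukocyte antigen CD45, was above background on 4 NP15, 4 P15 and 0 P18 arrays. The P18 arrays also had the higher net signal of negative-control spots. CD68, another marker of the list, read -2.47 to -1.38 in P15 and from -1.56 to -0.11 in P18. The part of interferon response and of leukocytes in the values of the 5 subunits was not tested. Other class I antigen-processing genes (TAP2, TAPBP, B2M, CALR, CANX and PDIA3) had 0 calls of 6 in each comparison by limma, and 2, 1 and 0 were at an unadjusted p under 0.05 for P15 against NP15, P18 against P15 and P18 against NP15.

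**Figure D5:**
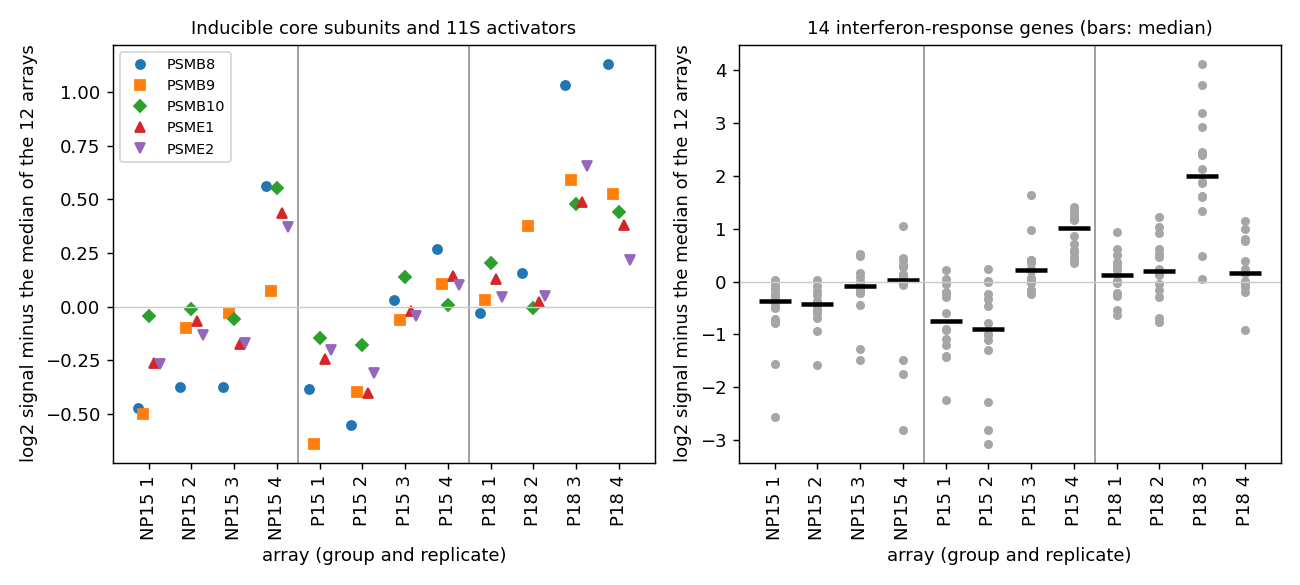
Left, log2 signal of PSMB8, PSMB9, PSMB10, PSME1 and PSME2 on each array minus the gene's median over the 12 arrays. Right, the same for 14 interferon-response genes, with bars at the median. P18 replicate 3 is high on both sides, with medians of 0.59 and 2.01, and P18 replicate 4 is high only on the left, with 0.44 against 0.17.

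The 6 ATPases of the 19S base form the ring that unfolds substrates. Against P15, 1 rose and 1 fell, beside 12.8% and 15.5% of all genes, and the median was 0.03. The probe of PSMC2, which had the smallest p among the proteasome genes that fell, is printed whole.
PSMC2: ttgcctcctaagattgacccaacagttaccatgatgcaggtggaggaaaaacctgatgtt

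PSMC2 read -0.66, -0.61, -0.64 and -0.41 in NP15, -0.79, -0.42, -0.88 and -0.54 in P15, and -1.29, -1.12, -1.13 and -1.10 in P18. All P18 arrays lay below the others. P18 was 1.41-fold lower than P15 (-0.50 ± 0.12 on the log2 scale, adjusted p = 0.00993 by limma) and 1.49-fold lower than NP15 (-0.58 ± 0.12, adjusted p = 0.00452), and both calls held in all alternatives run.

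PSMC4 was the ATPase that rose. It read 1.90 to 2.01 in NP15, 1.82 to 1.98 in P15 and from 2.13 to 2.37 in P18, with no overlap. The change was 0.32 (SE 0.09, 1.25-fold, limma adjusted p = 0.0193) from P15 and 0.29 (SE 0.09, 1.22-fold, adjusted p = 0.0309) from NP15. After quantile normalization neither held, at 0.12 (adjusted p = 0.318) and 0.10 (adjusted p = 0.395), nor did either after row adjustment, at 0.20 (0.154) and 0.21 (0.119). Cyclic loess normalization ended the first, at 0.22 (adjusted p = 0.0627). Leaving out P15 replicate 3 or P18 replicate 3 ended the first, at 0.0596 and 0.0569, and 6 single arrays ended the second, at 0.0531 to 0.0870.

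PSMC1, PSMC3, PSMC5 and PSMC6 did not pass, at -0.04, -0.27, 0.09 and 0.19 from P15. PSMC5 read 4.03, 4.08, 4.03 and 2.30 in NP15, the last of them in the patch. Its change from NP15 to P18 was 0.47 with that spot and 0.04 without it.

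The 12 PSMD genes encode the other 19S proteins and, for PSMD5, PSMD9 and PSMD10, chaperones that help to assemble the base. Against P15, 2 rose and 1 fell, with a median of 0.11, and the same counts were found against NP15, with a median of 0.12. Of the 18 PSMC and PSMD genes together, 27.8% were called in each P18 comparison, near the 28.3% and 28.9% of all genes. The patch spots of PSMD11, PSMD12 and PSMD14 enter the median against NP15. Over the alternatives the median of the PSMC and PSMD genes together was -0.02 to 0.13 against NP15, so its direction is not settled. PSMD9 had the smallest p of the class, and a window of its probe is shown with AATAAA in capitals.
PSMD9: accctagactatAATAAAcacggtttgtcc

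PSMD9 read -2.5, -2.28, -2.61 and -2.37 in NP15, -2.48, -2.41, -2.34 and -2.54 in P15, and -1.90, -2.02, -1.96 and -1.89 in P18. The 4 P18 arrays were the highest and lay close together. P18 was 1.41-fold above P15 (0.50 ± 0.10 on the log2 scale, adjusted p = 0.00350 by limma) and 1.41-fold above NP15 (0.50 ± 0.10, adjusted p = 0.00343). These calls held in every alternative that tested the gene. The probe is in row 18 and was not tested with the outer rows left out.

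PSMD8, a subunit of the lid, read 1.76, 1.90, 1.82 and 1.99 in NP15, 1.90, 1.70, 1.60 and 1.94 in P15, and 2.17, 2.34, 2.48 and 2.13 in P18, again with P18 on top. Its change was 0.49 (SE 0.12, 1.41-fold, limma adjusted p = 0.0101) from P15 and 0.41 (SE 0.12, 1.33-fold, adjusted p = 0.0231) from NP15. Quantile normalization ended both calls, at 0.0720 and 0.160. The second was also lost without NP15 replicate 1 or 3 or P18 replicate 2 or 3, at 0.0535 to 0.0672.

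PSMD6, also a lid subunit, fell. It read -2.56, -2.11, -2.6 and -3.13 in NP15, -2.66, -2.75, -2.46 and -3.07 in P15, and -3.25, -3.89, -3.35 and -3.43 in P18, below all the others. P18 was 1.68-fold lower than P15 (-0.75 ± 0.22 on the log2 scale, adjusted p = 0.0261 by limma) and 1.84-fold lower than NP15 (-0.88 ± 0.22, adjusted p = 0.0123). The first call was lost without P15 replicate 1, 2 or 3 or P18 replicate 2, at 0.0533 to 0.0747, and after quantile normalization, at 0.0959. Both were lost after cyclic loess normalization, at 0.132 and 0.0830.

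The other 9 PSMD genes did not pass in either comparison. PSMD7, a lid subunit, read 3.06 to 3.56 in NP15, 3.06 to 3.18 in P15 and from 2.99 to 3.06 in P18, with P18 below both other groups by less than the 2 decimals show and changes of -0.12 and -0.23 (adjusted p = 0.432 and 0.140). PSMD14 had a change of 1.17 (SE 0.82) from NP15 to P18 and of 1.07 (SE 0.82) from NP15 to P15 with the patch spot. Without that spot they were 0.07 and -0.03. PSMD11 likewise went from 0.37 to -0.04 in P18 against NP15.

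PSMD12 was measured by 2 probes that share no run of bases longer than 6, and they did not give one answer. Their first 30 bases are shown, with the probe identifiers, since the probe decides the call.
PSMD12 A_73_103947: ctcatagccaaagaggagatgatacataat
PSMD12 A_73_116649: ttcagcttctggatatagctgcaataaaag

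The probe A_73_103947 read 0.09, 0.21, 0.07 and 0.38 in NP15, -0.04, -0.02, 0.08 and 0.12 in P15, and -0.50, -0.03, -0.15 and -0.17 in P18. P18 was lower than NP15 on it, with all 4 arrays below (-0.40 ± 0.12 on the log2 scale, adjusted p = 0.0259 by limma). The brighter probe, A_73_116649, which stands for the gene, was at 0.19 (SE 0.20), and at -0.03 without its spot in the patch. Which of the probes measures PSMD12 better was not tested.

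PSMF1, the inhibitor protein PI31 that binds the core, rose on day 18. It read -1.11, -0.78, -0.89 and -1.12 in NP15, -1.10, -1.14, -0.86 and -1.04 in P15, and -0.61, -0.62, 0.085 and -0.65 in P18. The P18 arrays were the highest, and P18 replicate 3 stood above the other P18 arrays. P18 was 1.5-fold above P15 (0.59 ± 0.17 on the log2 scale, adjusted p = 0.0235 by limma) and 1.44-fold above NP15 (0.52 ± 0.17, adjusted p = 0.0387). The first call was lost without P15 replicate 1 or 2, at 0.0560 and 0.0617, and the second without 6 single arrays, at 0.0503 to 0.0927. Without P18 replicate 3 the change from NP15 was 0.34 (adjusted p = 0.0660).

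Added up, the signals of the 23 UBE2 genes came to 35 to 37.1 on NP15 arrays, 33.7 to 36.5 on P15 arrays and from 36.1 to 38.9 in P18. The sum of NP15 replicate 4, 35.7, includes the low patch spots of UBE2G2, UBE2K, UBE2V1 and UBE2V2. How that array compares with P18 in these sums is therefore not certain. Against P15, 1 of the 23 was called, UBE2V2, and against NP15 2 were, UBE2T and UBE2J2, beside 28.3% and 28.9% of all genes. Over the alternatives 0 to 3 were called higher and 0 to 3 lower against P15, and 0 to 4 in each direction against NP15. A test of the difference between the core and the UBE2 genes was not run.

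UBE2V2, a variant without catalytic cysteine that pairs with UBE2N to build chains used in DNA damage signalling, fell. It read 0.15, 0.13, 0.05 and -1.05 in NP15, -0.03, 0.08, -0.01 and -0.23 in P15, and -0.97, -0.79, -0.76 and -0.57 in P18. All P18 arrays were below all P15 arrays, and NP15 overlapped only through replicate 4, which lies in the patch. P18 was 1.65-fold lower than P15 (-0.72 ± 0.24 on the log2 scale, adjusted p = 0.0418 by limma). This call was lost without any of 9 single arrays, all but NP15 replicates 1, 2 and 4, at 0.0504 to 0.0980. Cyclic loess normalization ended it too, at 0.0662. Against NP15 the change was -0.59 (adjusted p = 0.0856), and with the patch spot left out it was -0.88 (adjusted p = 0.000428). Its partner UBE2N was at 0.16 and 0.19 in the P18 comparisons and did not pass.

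UBE2T, the E2 of the Fanconi anaemia pathway of DNA crosslink repair, was higher on day 18. It read -0.04, 0.06, -0.13 and -2.42 in NP15, 0.06, 0.26, 0.03 and -0.31 in P15, and 0.75, 0.64, 0.93 and 0.78 in P18. The P18 arrays lay above all the others. With all spots P18 was 2.65-fold above NP15 (1.40 ± 0.45 on the log2 scale, adjusted p = 0.0388 by limma) and 1.70-fold above P15 (0.76 ± 0.45, adjusted p = 0.242). On NP15 replicate 4 the spot differed from the other NP15 arrays by -2.38 and its neighbours by -0.61. With the spot left out the change from NP15 was 0.81 (adjusted p = 0.00158), and that from P15 stayed at 0.76 and passed (adjusted p = 0.00148). The call against NP15 was also lost without any of 7 single arrays, P15 replicates 1 to 3 and all P18 replicates, at 0.0511 to 0.0860. Row adjustment ended it too, at 0.0575.

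UBE2J2, an enzyme of the endoplasmic reticulum membrane, read 2.03, 2.21, 2.26 and 2.5 in NP15, 2.12, 2.09, 2.03 and 2.26 in P15, and 1.82, 2.07, 1.91 and 1.86 in P18. P18 overlapped NP15 by 1 array. The change from NP15 was -0.33 (SE 0.11, 1.26-fold lower, limma adjusted p = 0.0482), and 10 of the 12 single arrays ended this call when left out, at 0.0519 to 0.112. All but NP15 replicate 1 and P18 replicate 2 did so.

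UBE2A and UBE2B are closely related enzymes of the RAD6 type, which act on histones and on DNA damage tolerance. UBE2A read -1.69, -1.72, -1.70 and -2.52 in NP15, -1.80, -1.87, -2.02 and -2.0 in P15, and -1.52, -1.51, -1.29 and -1.44 in P18. P18 lay above both groups. Its change from P15 was 0.49 (SE 0.18, limma adjusted p = 0.0599), and without the NP15 spot in the patch it was the same size and passed (adjusted p = 0.00307). Against NP15 it was 0.47 with that spot and 0.27 without it, and passed in neither case (adjusted p = 0.0652 and 0.0635).

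UBE2B read -1.03, -0.95, -1.13 and -0.48 in NP15, -1.30, -1.46, -1.29 and -0.91 in P15, and -5.06, -0.52, -2.03 and -0.72 in P18. The value of -5.06, on P18 replicate 1, differed from the other P18 arrays by -4.33 and its neighbours by -1.85. The change from P15 was -0.84 (SE 0.78, adjusted p = 0.463), and -0.03 with spots of local shift left out.

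The remaining UBE2 genes gave no call. UBE2C, which works with the anaphase-promoting complex in mitosis, spread over -5.31 to -2.72 in the 12 arrays and was at -0.42 (SE 0.49) from P15. UBE2F, an E2 for NEDD8, was at 0.0014. UBE2D1 to UBE2D4, broad partners of E3 ligases, were at 0.25, -0.40, 0.10 and 0.07. UBE2O, which acts as both E2 and E3, was at -0.49 in P15 against NP15 (SE 0.19, limma adjusted p = 0.446), which did not pass, and NP15 replicate 4 had its highest value, -0.37. UBE2E3 was not above background on any P18 array, so its change of -1.17 from P15 gives no fold. UBE2V1 went from 0.47 to -0.04 in P18 against NP15 with its patch spot left out.

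UBE2Q2 had 2 probes that share no run longer than 6 bases. They are shown because they differ on one array, where only one of them lies in the patch.
UBE2Q2 A_73_107774: taatatcctgatggctagcagattgacagc
UBE2Q2 ABR8595: tccttacctatgctatggatttttaattta

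On NP15 replicate 4 the probe ABR8595 read 0.09, against 1.17 to 1.38 on the other NP15 arrays. The probe A_73_107774, which stands for the gene, read 1.76 there, against 1.67 to 1.93. The gene changed by 0.23 (SE 0.13) from P15 to P18 and did not pass. PSME3IP1, which is no subunit but a protein that binds PSME3, was at -0.07 from P15 to P18.

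What the member probes share in sequence was counted over whole probes of 60 bases. AATAAA was found in 12 of the 65 member probes, 18.5%, and in 1714 of 15208 probes on the array, 11.3%. It was in 10 of 41 proteasome probes, 24.4%, and in 2 of 24 UBE2 probes, 8.33%. Its reverse complement TTTATT was in 6 of the member probes, 9.23%, and in 4.14% of all probes. No other motif was searched, and a match says only that the letters are in the probe. The files list the probes as unmapped, so no genome position is given for them.

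Other genes of the pathway moved in both directions. Whether probes of these genes lie in the patch of NP15 replicate 4 was not tested. Ubiquitin, ubiquitin-like and activating-enzyme genes had 3 higher and 2 lower calls of 10 tested against P15 and 3 and 1 against NP15. Of all genes 12.8% were higher and 15.5% lower against P15, and 10.4% and 18.6% against NP15. UBB, a polyubiquitin gene, read -0.08 to 0.33 in NP15, 0.30 to 0.59 in P15, and 1.46, 1.52, 1.5 and 1.69 in P18, so the groups of day 15 lay far below day 18. P18 was 2.15-fold above P15 (1.11 ± 0.12 on the log2 scale, adjusted p = 0.000128 by limma) and 2.53-fold above NP15 (1.34 ± 0.12, adjusted p = 3.92e-05). Ubiquitin genes hold near-identical coding repeats, and whether these probes tell them apart was not tested.

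UBA1, the main E1 enzyme for ubiquitin, fell. It read -2.01, -2.15, -1.82 and -1.86 in NP15, -2.07, -2.01, -2.27 and -2.29 in P15, and -3.67, -3.46, -3.69 and -3.65 in P18. No array of day 15 came near those of day 18. P18 was 2.75-fold lower than P15 (-1.46 ± 0.11 on the log2 scale, adjusted p = 2.07e-05 by limma) and 3.16-fold lower than NP15 (-1.66 ± 0.11, adjusted p = 1.17e-05). UBB and UBA1 were called in both P18 comparisons in every alternative that tested them. UBA7, the E1 for the ubiquitin-like ISG15, fell from P15, at -0.85 (SE 0.21, adjusted p = 0.0124), and NEDD8 was 0.46 higher (SE 0.10, adjusted p = 0.00751). Row adjustment took NEDD8 to 0.24 (adjusted p = 0.0821). ISG15 itself spread over -1.09 to 5.44 on the 12 arrays, with P18 replicate 3 the highest.

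Among 9 proteasome-bound factors, shuttles and regulators, 3 were higher and 1 lower in each P18 comparison. In either direction 28.3% of all genes were called against P15 and 28.9% against NP15. VCP, the ATPase that extracts ubiquitinated proteins, read 3.30 to 3.37 in NP15, 3.14 to 3.37 in P15 and from 3.71 to 3.76 in P18. Its change was 0.48 (SE 0.08, limma adjusted p = 0.00167) from P15 and 0.39 (SE 0.08, adjusted p = 0.00472) from NP15. RAD23B, a shuttle that carries ubiquitinated proteins to the proteasome, rose by 0.39 from P15 (SE 0.09, adjusted p = 0.0103), a call lost after quantile (adjusted p = 0.101) and cyclic loess normalization (0.0582). NFE2L2, a transcription factor of the oxidative stress response, rose by 0.63 from NP15 (SE 0.11, adjusted p = 0.00176). UBQLN1, another shuttle, fell, with changes of -0.65 (SE 0.10, adjusted p = 0.000876) and -0.59 (SE 0.10, adjusted p = 0.00135).

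Cullin and anaphase-promoting ligase genes had 2 higher and 3 lower calls of 13 in each P18 comparison. The shares of all genes were 12.8% higher and 15.5% lower against P15, and 10.4% and 18.6% against NP15. ANAPC11 and CDC26, small subunits of the anaphase-promoting complex, rose from P15 by 0.69 (SE 0.10, limma adjusted p = 0.000492) and 0.54 (SE 0.09, adjusted p = 0.00160). CDC27 of the same complex fell, at -0.70 (SE 0.16, adjusted p = 0.00831), but was at -0.29 with normexp background correction (adjusted p = 0.106). FBXW7, a substrate receptor of cullin ligases, fell at -0.59 (SE 0.16, adjusted p = 0.0163). CUL2, a cullin scaffold, was lower than in NP15 at -0.42 (SE 0.11, adjusted p = 0.0146). The lists of ubiquitin, proteasome-bound and ligase genes had no call for P15 against NP15 by limma, and 0 of their genes were at an unadjusted p under 0.05.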

How the data were processed

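Corpus luteum RNA of 12 cows was measured on 1-colour Agilent arrays of 15208 probes and 536 control spots in 192 rows and 82 columns. Spot intensities are on a linear scale and were made by the authors with Agilent's Feature Extraction. The submitters' processing notes give its version as 9.5, and it is 9.5.1.1 per the file headers, which also record a correction for background and a spatial trend. The deposited value table holds log2 values, which were the logged processed signal less 1 constant per array, to within 1.79e-06. Its column medians were -3.08 to -2.99 for the NP15 and P15 arrays and -3.32 to -3.19 for the P18 arrays, and it served as an alternative.

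Values were log2 of the processed signal minus each array's 75th percentile. Controls were left out and marked spots, at most 9 per array, were set to missing. Probes well above background on at least 3 of 4 arrays in any group were kept, 12605 in all, and the brightest stood for its gene. Genes were named from the files and a RefSeq table of ARS-UCD2.0, used for names only, and 8171 probes were not matched. UBE2K was found through its older symbol. Probe sequences are those of the deposited files.

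Limma 3.58.1 in R 4.3.3 was fitted to all 12 arrays with group means, two-sided, with Benjamini-Hochberg adjustment over the 12334 genes tested and a threshold of 0.05. On simulated data for P18 against NP15, with 200 of 12315 genes changed by 1 log2 unit, 56% were recovered with 4 false calls. In the data 28.9% of genes were called in this comparison, so these simulated figures do not carry over to them. Only 4 animals per group limit the precision. Named genes were, per comparison and class, up to 4 called in each direction by smallest p, always PSMB5 to PSMB10, PSME1, PSME2 and PSMF1, and up to 2 in each direction from each other pathway list. Other members are given to account for them, except 1 UBE2 gene that is counted but not reported here, and genes singled out for a spot, a probe pair or a list were chosen after their values were seen. Members and lists were chosen with earlier results of these data known. Alternatives were quantile, cyclic loess and normexp (offset 50) processing, filters, 24 outer rows on each side left out, row adjustment, array weights, a replicate block and leaving out arrays. Replicate numbers did not meet the rule for pairing.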

Additional observations from a re-analysis of the deposited data

Results flagged for a closer look

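In 20 of 186 sets of 4 member values, 1 array stood apart from the other 3 of its group by Dixon's criterion. Chance gives about 1 in 20 such sets. Of the 20, 13 were on NP15 replicate 4, and 11 of those had low neighbours on that array. Log2 values there were 1.67 for PSMA1, 1.36 for PSMB3, 2.30 for PSMC5, 1.38 for PSMD11, -2.21 for PSMD14, -2.52 for UBE2A, -0.39 for UBE2G2, 0.27 for UBE2K, -2.42 for UBE2T, -1.18 for UBE2V1 and -1.05 for UBE2V2, all below the other NP15 arrays. The other 2 on this array were above the rest, PSMB8 at 0.24 against -0.79 to -0.70 and PSMB10 at 3.02 against 2.41 to 2.45.

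Elsewhere 7 members had an array apart. On P18 replicate 3 these were PSMB5 at 3.23, PSMC3 at 1.88 and PSMF1 at 0.085, all above the other P18 arrays. PSMC2 on P18 replicate 1 was at -1.29, below the rest. PSMC1 on P15 replicate 4, at 0.92, PSMD3 on P15 replicate 1, at -0.14, and PSMD13 on NP15 replicate 1, at 2.65, were also below the rest. Of the other pathway genes, CDC26 was high on P15 replicate 4, at 0.57, UBA7 on the same array, at -0.48, RAD23B on NP15 replicate 2, at 2.93, and UBA1 on P18 replicate 2, at -3.46.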

How the results depend on the processing

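No member was called for P15 against NP15 under any alternative run. The 14 calls of P18 against P15 became 8 of 47 with outer rows left out, 23 with array weights, 21 without replicate 4 of NP15 and of P15, and 8 to 20 with 1 array left out. The 12 calls against NP15 became 6 with outer rows left out, 6 with the 2 groups alone, 20 with array weights, 18 without both replicates 4, and 6 to 16 with 1 array left out. Higher and lower calls were 10 and 4 against P15, and 6 and 5 after quantile normalization. They were 8 and 4 against NP15, 11 and 3 after cyclic loess and 7 and 7 after row adjustment, which moved the median of all genes to -0.13 for P18 against P15. Leaving out the outer rows removes 15 members, so its counts are over fewer genes.

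The check for pairing gave correlations of same-numbered arrays of -0.04 to 0.29. With the replicate block 0, 14 and 11 members were called for P15 against NP15, P18 against P15 and P18 against NP15. Among the genes with values in the report it added PSMB8 in both P18 comparisons (adjusted p = 0.0167 and 0.0156) and PSMB9 against NP15 (0.00705). Of the same genes it ended the calls of PSMA5 (0.0528) and UBE2V2 (0.0537) against P15 and of PSMC4 (0.0646), PSMD8 (0.0523) and UBE2J2 (0.0602) against NP15.

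Changes of P15 against NP15 near 0 turned direction, and the cause was not tested. PSMB7 was at 0.0021 after cyclic loess, 0.012 after row adjustment and -0.095 to 0.0057 without 1 array. PSMB8 was at -0.076 after row adjustment and -0.14 to 0.25 without 1 array, with -0.096, -0.064, -0.064 and -0.057 without NP15 replicates 1, 2 and 3 and P15 replicate 3. PSMB9 ranged from -0.23 to 0.021, PSME1 from -0.20 to 0.039, PSME2 from -0.14 to 0.077 and PSMF1 from -0.12 to 0.0013 without 1 array. PSME1 was at 0.032 after row adjustment, and PSME2 at 0.021 with array weights, 0.0024 without P15 replicate 2 and 0.0057 without both replicates 4. PSMB5 was at -0.00087 for P18 against NP15 after quantile normalization.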
